A study of Mus musculus with 10 samples.

Results

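The genes described here encode 7 endothelial surface molecules that let blood leukocytes and haematopoietic stem and progenitor cells take hold of a vessel wall. They are the selectins Sele and Selp, the immunoglobulin-type adhesion molecules Vcam1, Icam1, Icam2 and Madcam1, and the chemokine-binding receptor Darc, an older symbol of Ackr1. They were chosen by name for this role, with earlier results of these data known, and all 7 are among the 22828 genes kept in the count tables. Their mRNA was followed in 43424 single endothelial cells (ECs) of mouse long bone, between EC types, ages and treatments. The study's own marker list holds Darc, Vcam1, Selp and Sele for sinusoidal bone marrow ECs and Icam2 for other types, and the study names Madcam1 as a sinusoidal marker, so the direction of these genes between types is not independent evidence here.

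Leukocytes leave the blood in steps: selectins catch the flowing cell and let it roll, chemokines held at the endothelial surface activate its integrins, and the integrins then bind immunoglobulin-type molecules for firm arrest. In most vessels inflammatory cytokines acting through NF-kB, a family of transcription factors, induce E-selectin, VCAM-1 and ICAM-1. Bone marrow sinusoids are known for carrying E-selectin, P-selectin and VCAM-1 without inflammation, and haematopoietic stem cells use them to home to the marrow and to stay there.

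ECs came from femur and tibia of C57BL/6 mice with the Cdh5-mTnG reporter, which all groups share and which marks Cdh5-expressing cells with nuclear GFP and membrane tdTomato. After depletion of lineage-positive blood cells, double-positive cells were sorted and sequenced by 10x Genomics 3′ chemistry. The groups were juvenile (3 weeks, males and females), adult (12 weeks, females), aged (75 weeks, females), adult females given parathyroid hormone (PTH, the bone-forming 1-34 fragment) daily, and adult females given alendronate, a bisphosphonate that blocks bone resorption, every other day. Each group has 2 libraries, and cells of several mice were pooled. The study reports that the sequencing of each group was done once, on pooled mice, and the labels do not tie the libraries to separate animals. The p-values therefore measure the spread between libraries and not that between independent groups of mice. A vehicle-injected group is not among the libraries used here, and the untreated adult libraries were the reference for both ages and both treatments, so those 4 comparisons share them.

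Of 47466 barcodes, 46283 passed the filters. Library totals ran from 10653583 to 28419323 unique molecular identifiers (UMIs, each 1 captured mRNA molecule), and median UMIs per kept cell from 3075 to 5149. Both aged libraries stand apart: mitochondrial UMIs made up 2.40% and 2.45% against 1.25% to 1.55% elsewhere, and 276 gene symbols beginning with U had UMIs in no other library and were left out. The labels name 2 versions of the 10x kit without saying which library had which, and a difference of kit cannot be told apart from age in the aged group. Pairs that held an aged library shared 3 or 4 cell barcodes and all other pairs 10 to 88. This was so although PTH replicate 1 had fewer barcodes (2193) than the aged libraries (2546 and 2630), and its source was not tested. Clusters built without the 7 genes were called bmEC-like (sinusoidal, Stab2, 15671 cells), mpEC-like (metaphyseal capillaries, Ramp3 and Aplnr, 5242 cells), aEC-like (arterial, Gja4, 6391 cells), rEC-like (type R capillaries, Timp4 and Aqp7, 2912 cells) and pEC-like (proliferating, 644 cells), and 12511 ECs stayed unnamed. UMIs were summed per type and library and are given as counts per 1000000 UMIs (CPM) after scaling by the TMM factors of edgeR, and a change is a log2 fold change ± standard error (SE). The comparison of types and the comparisons of groups within a type were scaled in separate fits, so a gene's CPM differs slightly between them. A 3′ tag count is not scaled to transcript length, so levels were compared within a gene only.

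By the mouse annotation of the build that the study used (GRCm38, mm10), Sele lies at chr1:164048234-164057677 and Selp at chr1:164115264-164150026, both on the plus strand. Vcam1 lies at chr3:116109949-116129688 on the minus strand, Icam1 at chr9:21015985-21028817 and Madcam1 at chr10:79664559-79668537 on the plus strand, Icam2 at chr11:106377656-106388075 on the minus strand, and Ackr1 at chr1:173331886-173333750 on the minus strand. Vcam1, Icam1 and Selp overlap antisense or long non-coding genes on the opposite strand, and Ackr1 overlaps Cadm3 on the same strand. The strand setting of the counting is not given in the sources used here, so reads of these overlaps are uncertain.

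Promoters are shown for 4 genes that fall into different patterns below: Sele, Selp and Madcam1, which were higher in aged than in adult bmEC-like cells, and Ackr1, which was lower. Each is the 250 bases before the gene start that RefSeq gives for GRCm38.p6, read 5′ to 3′ on the strand of the gene, with matches on either strand to an NF-kB form (GGG, then NNNNN, then CC, where N is any base) in capitals.
Sele, chr1:164047984-164048233, plus strand: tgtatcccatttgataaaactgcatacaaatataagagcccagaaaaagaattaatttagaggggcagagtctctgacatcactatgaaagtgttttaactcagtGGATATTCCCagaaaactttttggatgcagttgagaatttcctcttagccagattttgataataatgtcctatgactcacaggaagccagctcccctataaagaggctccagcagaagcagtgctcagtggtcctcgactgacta
Selp, chr1:164115014-164115263, plus strand: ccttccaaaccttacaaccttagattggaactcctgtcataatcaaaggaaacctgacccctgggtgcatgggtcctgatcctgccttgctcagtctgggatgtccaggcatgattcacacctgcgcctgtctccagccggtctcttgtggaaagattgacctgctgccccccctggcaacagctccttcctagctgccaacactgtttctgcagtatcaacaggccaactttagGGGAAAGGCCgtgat
Madcam1, chr10:79664309-79664558, plus strand: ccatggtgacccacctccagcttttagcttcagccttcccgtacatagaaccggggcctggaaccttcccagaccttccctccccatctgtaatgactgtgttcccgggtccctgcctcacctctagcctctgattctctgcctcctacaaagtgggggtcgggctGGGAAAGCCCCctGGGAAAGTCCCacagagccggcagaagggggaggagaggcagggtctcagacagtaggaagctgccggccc
Ackr1, chr1:173333504-173333753, minus strand: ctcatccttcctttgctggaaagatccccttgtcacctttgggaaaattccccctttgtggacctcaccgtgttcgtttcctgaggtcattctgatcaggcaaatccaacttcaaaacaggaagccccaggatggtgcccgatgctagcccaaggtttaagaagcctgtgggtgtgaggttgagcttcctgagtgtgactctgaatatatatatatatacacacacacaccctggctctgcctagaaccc
The form was found once in Sele (starting at -145 from the gene start), once in Selp (-15), in overlapping matches at 2 places in Madcam1 (-84 and -71), once in Icam1 (-120, not shown) and nowhere in this window of Ackr1. It is common: 45.8% of 32851 mouse promoter windows hold it, so a match is a description of the letters and not a binding site. Icam1, which holds the form, was lower in aged than in adult bmEC-like cells, as was Ackr1, which does not. RefSeq starts Ackr1 further downstream than the annotation used for the positions above, so the Ackr1 window lies almost wholly within the gene as placed there. Vcam1 and Icam2 had no entry in the promoter table.

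Across the 10 libraries, 6 of the 7 genes were highest in bmEC-like cells in each library on the scale of the fit over types, and Icam2 was lowest there. With the scaling of the fits within types, Madcam1 of adult replicate 1 was not: it stood at 21.1 CPM in pEC-like and 20.7 in bmEC-like cells. All 7 passed the test against the mean of the other 4 types (adjusted p below 0.05 and a log2 difference above 1, by edgeR's quasi-likelihood test with the library as a block and Benjamini-Hochberg adjustment), where 16.4% of the 11814 genes tested passed, 7.94% as higher. Most endothelial UMIs of the 6 genes sat in the bmEC-like cells, which are 36.1% of all ECs: 85.5% for Madcam1, 78.2% for Sele, 77.2% for Darc, 76.0% for Vcam1, 70.7% for Selp and 63.1% for Icam1, but 20.9% for Icam2.

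Sele, whose product E-selectin binds sialylated glycans on rolling leukocytes and progenitors, had 84.2 to 399 CPM in the bmEC-like cells of the 10 libraries, with a median of 129. The mpEC-like sums reached at most 30.5 CPM, the aEC-like sums 11.1 CPM and the rEC-like sums 8.61 CPM, with a median of 1.21. The bmEC-like range therefore overlapped none of these, and the difference from the mean of the other types was 4.5 ± 0.15 on the log2 scale (edgeR, adjusted p = 5.3e-31). Selp, the P-selectin that endothelium stores in Weibel-Palade bodies, ran from 281 to 490 CPM in bmEC-like cells, with a median of 324. Its mpEC-like sums came next, at 35 to 106 CPM with a median of 88.3, followed by pEC-like sums with a median of 84.4, and the difference between these types did not pass (edgeR, log2 difference 0.05 ± 0.23, adjusted p = 0.911). Arterial and type R cells were lowest, with medians of 14.9 and 15.4 CPM.

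Vcam1, the ligand of the integrin VLA-4 on haematopoietic stem cells and lymphocytes, ran from 1114 to 2848 CPM in bmEC-like cells with a median of 1742. The medians were 292 CPM in pEC-like, 217 in mpEC-like and 138 in aEC-like cells, and the rEC-like median of 81.9 CPM was the lowest. Only the step from bmEC-like to pEC-like cells passed both thresholds, at 2.51 ± 0.20 (edgeR, adjusted p = 8.1e-16, higher in 9 of 9 libraries that had both), whereas pEC-like and mpEC-like cells did not differ beyond their spread (adjusted p = 0.123). The steps from mpEC-like to aEC-like (0.69 ± 0.18, edgeR, adjusted p = 8.3e-04) and from aEC-like to rEC-like cells (0.96 ± 0.23, 7.4e-04) were smaller than the fold asked for. They were higher in 8 and 9 of 10 libraries. Madcam1, known as the addressin of gut and marrow vessels for the integrin α4β7, was in the same place but at fewer UMIs: 16.3 to 153 CPM in bmEC-like cells against at most 10.8 in mpEC-like cells, 1.65 in arterial and 12.1 in type R cells. The pEC-like sums reached 37.3 CPM, with a median of 3.41, and overlapped the bmEC-like range. In the rEC-like cells it rested on 7 UMIs in all, and 6 of the 10 libraries had none.

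Icam1 and Icam2, both ligands of the β2 integrins of leukocytes, went opposite ways. Icam1 ran from 15.8 to 27.7 CPM in bmEC-like cells and stayed at or below 13.8 CPM in every other sum, a difference of 1.98 ± 0.13 (edgeR, adjusted p = 3.3e-19). Icam2, which endothelium is known to express without induction, was highest in aEC-like cells at 684 to 1109 CPM, followed by mpEC-like (median 654), pEC-like (649) and rEC-like cells (534). Its bmEC-like sums of 199 to 359 CPM were below the aEC-like sums in all 10 libraries. The step from aEC-like to mpEC-like cells was 0.60 ± 0.08, higher in 10 of 10 libraries but smaller than the fold asked for. Darc, a receptor that binds many inflammatory chemokines without signalling, ran from 717 to 1859 CPM in bmEC-like cells with a median of 1644, and the mpEC-like sums of 61.9 to 341 CPM (median 235) came next, 3.01 ± 0.19 lower on the log2 scale (edgeR, adjusted p = 3.9e-19).

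**Figure D1:**
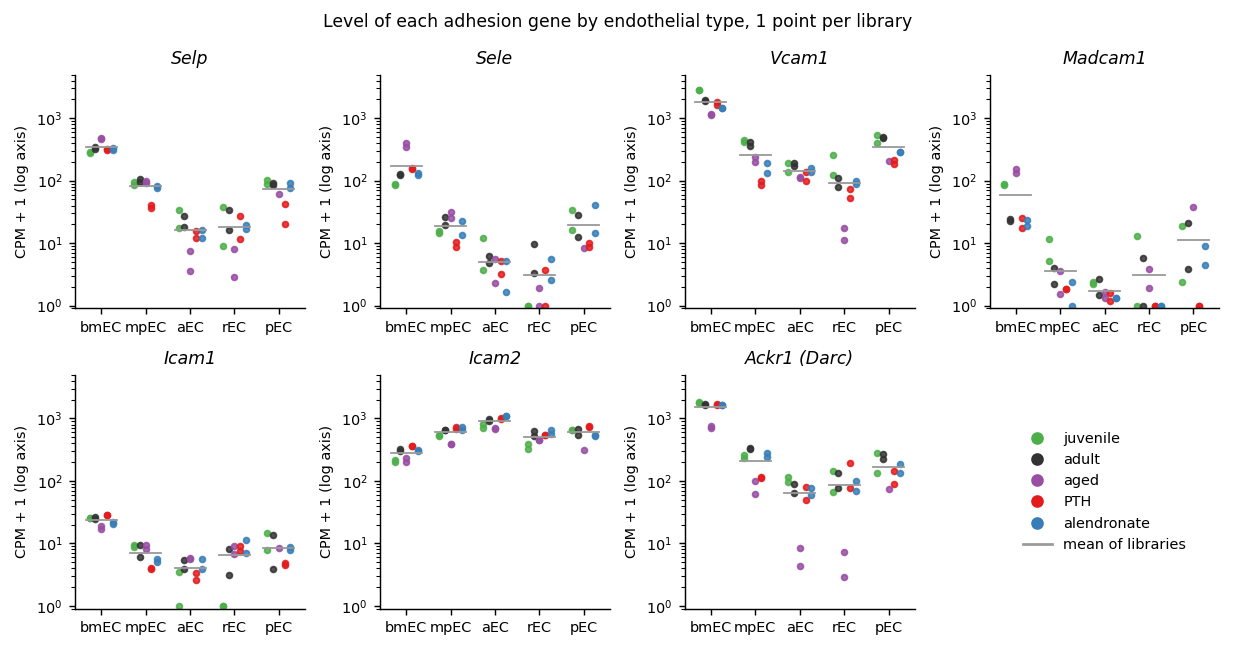
Level of each gene (CPM + 1, log axis) in the 5 endothelial types, with 1 point for each library (10 libraries, 9 for pEC-like cells). The bmEC-like points lie above those of mpEC-like, aEC-like and rEC-like cells for 6 genes. Icam2 has its lowest median in bmEC-like and its highest points in aEC-like cells, with bmEC-like points up to 359 CPM and rEC-like points down to 328 CPM.

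Shares of cells with a UMI were taken after each cell was thinned to 1000 UMIs, since median depth ran from 2028 UMIs in rEC-like to 5491.5 in pEC-like cells, with 4024 in bmEC-like and 4676 in mpEC-like cells. At this depth 68.0% ± 9.96 (SD over 10 libraries) of bmEC-like cells held a Vcam1 UMI, 59.0% ± 8.53 a Darc UMI and 26.6% ± 4.88 a Selp UMI. The shares were 12.6% ± 7.39 for Sele, 3.72% ± 3.42 for Madcam1 and 2.07% ± 0.25 for Icam1, and Icam2 was found in 21.8% ± 4.56 of them against 57.1% ± 6.94 of aEC-like cells. Haematopoietic cells that the clustering set apart from the ECs served as a floor. Most of them, 918 of 1480 before thinning, formed a cluster with granule genes such as Mpo and Elane and the platelet genes Ppbp and Pf4, and the source of endothelial UMIs in them was not tested. Among the 1456 of them with enough UMIs (median 5346 before thinning), 8.10% held a Vcam1 UMI (95% Clopper-Pearson interval 6.75 to 9.63%, counting error only), 8.24% Darc and 3.02% Selp, beside 9.48% for the sinusoidal marker Stab2. The aEC-like shares of Darc (6.03%) and Selp (1.26%) and the rEC-like shares of Darc (7.78%), Vcam1 (6.42%) and Selp (1.48%) were at or below that floor and are not read as expression. The floor of Selp may hold true expression, since platelets make P-selectin. Sele, Madcam1 and Icam1 were at 0.549%, 0.343% and 0.687% in the haematopoietic cells, floors that rest on 8, 5 and 10 cells. Their aEC-like shares were lower (0.159%, 0.128% and 0.424%). So were the rEC-like shares of Sele (0.296%) and Icam1 (0.371%) and the mpEC-like share of Madcam1 (0.209%). These are not read as expression either. Both Icam1 shares lie within the 95% interval of its floor (0.33 to 1.26%), so they are not shown to be below it. In mpEC-like cells of adult libraries Darc was found in 14.8 and 16.3% and Vcam1 in 21.6 and 21.3%, against 10.2 and 13.5% and 10.6 and 11.7% of the haematopoietic cells of the same libraries. In PTH libraries mpEC-like Darc (7.52 and 7.59%) was below the haematopoietic shares (10.5 and 9.26%) and Vcam1 (5.31 and 5.69%) within their range (7.46 and 3.70%), so neither is read as expression there. With alendronate mpEC-like Darc (15.2 and 13.7%) and Vcam1 (12.2 and 15.3%) were above them (7.58 and 6.02%, 8.08 and 6.02%).

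Within the bmEC-like cells the genes were found together about as often as their single shares predict. Of 21 gene pairs, Vcam1 with Darc was seen in 7251 thinned cells against 6912 predicted within libraries, a ratio of 1.05, and Vcam1 with Selp in 2843 against 2709, also 1.05. Both ratios were above 1 in 10 of 10 libraries. The highest ratios belonged to Icam1, with Sele at 1.31 (41 cells against 31.3) and with Selp at 1.26 (101 against 80.0), and to Icam1 with Madcam1 at 1.57, which rests on 14 cells. These ratios are descriptions over cells of shared libraries and carry no test.

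Clusters inside and beside the bmEC-like cells separated the genes from one another. Cluster 7, a bmEC-like cluster of 2214 cells led by the immediate early genes Fos and Fosb, had Icam1 at a median of 49.4 CPM over the libraries against 15.8 in cluster 0, the largest bmEC-like cluster, and was higher in 10 of 10 libraries. Sele (178 against 104 CPM) and Selp (329 against 288) were also higher there in 10 of 10 libraries, and Vcam1 in 6 of 10. Cluster 8, 1391 unnamed cells led by the smooth muscle-associated Tagln and by Vwf, the von Willebrand factor of Weibel-Palade bodies, had Darc and Selp near the sinusoidal level but little Vcam1. Its Vcam1 median was 187 CPM against 1552 in cluster 0, lower in 9 of 9 libraries that had both, and its Madcam1 median was 0 against 25.8. Sele, unlike Selp, was also lower there in 9 of 9 libraries (53.2 against 107 CPM). Icam1 was higher in cluster 8 in 9 of 9 libraries (38.8 against 15.3 CPM) and so was Icam2 (406 against 265).

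Other clusters differed from their larger neighbours as well. In arterial cluster 9, led by Gkn3 and Cytl1, Vcam1 had a median of 354 CPM against 121 in the larger arterial cluster 3 and was higher in 8 of 8 libraries, as was Icam2 (1273 against 964). Cluster 13, unnamed and led by the interferon-inducible chemokines Cxcl10 and Cxcl9, had Icam2 at 450 CPM against 263 in cluster 0, higher in 10 of 10 libraries, Selp at 204 against 288, lower in 9 of 10, Darc at 1043 against 1430, lower in 8 of 10, and Vcam1 at 1309 against 1637, lower in 7 of 10. These clusters were formed on genes of the same cells, and no test was made between them.

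**Figure D2:**
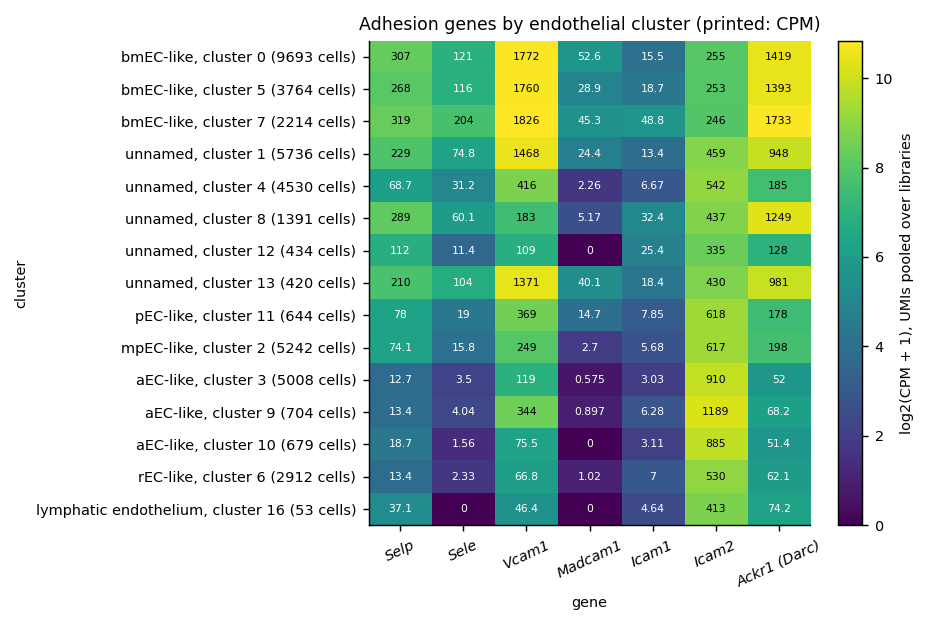
UMIs of each gene pooled over libraries in each endothelial cluster, coloured by log2(CPM + 1) with the CPM printed in each field. Cluster 8 holds Darc and Selp with little Vcam1, cluster 7 has the most Icam1 of the bmEC-like clusters, and the aEC-like clusters hold Icam2.

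The 3 age groups ask how these genes change from growth to old age in the sinusoidal cells. The juvenile libraries held males and females and the other ages females only. In every comparison of juvenile with adult libraries, sex therefore cannot be told apart from age. Madcam1 and Sele rose from adult to aged bmEC-like cells and Vcam1 and Darc fell, and Madcam1 was also higher in juvenile than in adult cells. Of the 7 genes, 7 passed at an adjusted p below 0.05 in aged against adult cells, where 64% of 13476 tested genes passed, and 6 passed in juvenile against adult cells, where 37.1% passed. With such a large share of all genes past the threshold, the counts say little about these genes, and the sizes are given instead. When the libraries were clustered without integration no juvenile call was left: Madcam1 then had 0.79 ± 0.48 and Vcam1 0.26 ± 0.08 (edgeR, adjusted p = 0.539 and 0.074), and the 6 directions were as before. In that setting a cluster of 5742 cells that scored nearest to bmEC stayed unnamed and lay outside the bmEC-like sums. Its top genes included Igfbp2, Ddx3y and Eif2s3y, and its part in the lost calls was not tested.

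Madcam1 stood at 20.7 and 21.9 CPM in the 2 adult libraries, 82.5 and 79.1 in the juvenile and 118 and 136 in the aged ones. The ranges of the 3 ages do not overlap, and adult is the lowest. The changes against adult were 1.92 ± 0.10 in juvenile (edgeR, adjusted p = 3.1e-18) and 2.57 ± 0.10 in aged cells (adjusted p = 3.9e-22). After thinning, 1.25 and 1.42% of adult, 5.09 and 5.06% of juvenile and 9.73 and 9.30% of aged bmEC-like cells held a Madcam1 UMI.

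Sele was 80.3 and 81.9 CPM in juvenile, 120 and 114 in adult and 301 and 353 in aged libraries, an ordered series in which no 2 ages overlap. Its change was -0.53 ± 0.06 in juvenile (adjusted p = 2.9e-08) and 1.48 ± 0.06 in aged cells (adjusted p = 1.1e-21, both by edgeR). Selp had the same order over a smaller range, at 268 and 272, 307 and 327, and 408 and 434 CPM. It changed by -0.23 ± 0.05 and 0.41 ± 0.05.

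Vcam1 was 2686 and 2703 CPM in juvenile, 1838 and 1770 in adult and 987 and 1032 in aged bmEC-like cells. It thus fell from each age to the next, with changes against adult of 0.58 ± 0.04 in juvenile (adjusted p = 3.2e-15) and -0.84 ± 0.04 in aged cells (adjusted p = 6.9e-20, both by edgeR). The share of thinned cells with a Vcam1 UMI went from 82.7 and 84.7% over 70.6 and 71.1% to 56.0 and 55.2%. Darc was 1691 and 1764 CPM in juvenile and 1540 and 1592 in adult libraries but 635 and 679 in aged ones, a change of -1.25 ± 0.04 (edgeR, adjusted p = 1.3e-25). In thinned cells the aged shares of Darc were 41.1 and 45.1% against 61.9 and 62.6% in adult cells.

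Icam2 was lower at both ends, at 205 and 189 CPM in juvenile, 285 and 308 in adult and 203 and 179 in aged cells (changes of -0.59 ± 0.05 and -0.63 ± 0.06). Icam1 was 23.6 and 22.9, 21.9 and 24.4, and 15.9 and 14 CPM; it fell by 0.62 ± 0.15 on the log2 scale in aged cells (edgeR, adjusted p = 3.4e-04) and gave no call in juvenile cells (0.01 ± 0.10, adjusted p = 0.955). The scaling matters for the aged group. With plain totals in place of TMM factors the median change of all genes in aged bmEC-like cells moved from 0.02 to 0.42 and the share of calls that were higher from 49.7% to 70.8%. The 7 genes kept their directions, but Vcam1 became -0.43 ± 0.04, Icam2 -0.23 ± 0.06, Selp 0.81 ± 0.05 and Madcam1 2.98 ± 0.10, and Icam1 no longer passed (-0.22 ± 0.15, adjusted p = 0.191 by edgeR).

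**Figure D3:**
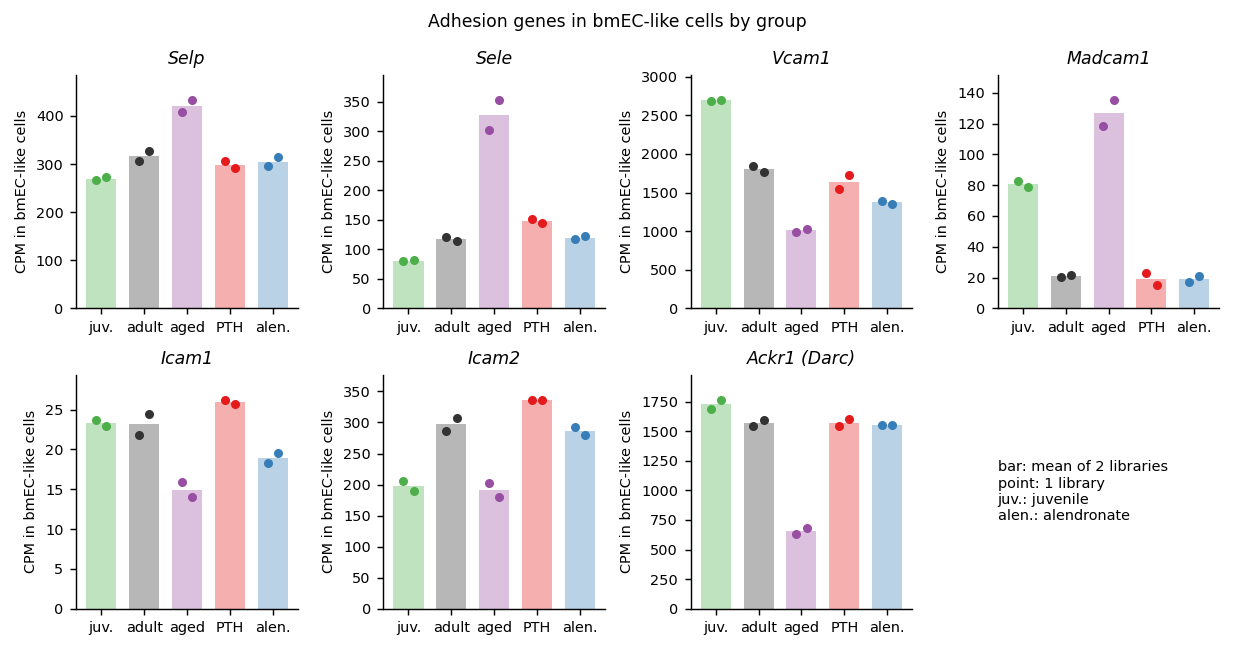
CPM of each gene in bmEC-like cells by group, with 1 point per library and a bar from 0 to the mean of both libraries. Madcam1 is lowest in the adult-age groups and highest in the aged group, Sele is highest in the aged group, and Vcam1 falls from juvenile over adult to aged cells.

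Markers of other cells also moved with age in the same sums. The summed level of the 10 haematopoietic markers was 422 to 455 CPM in aged against 51.5 to 59.9 in adult and 8.04 to 11.5 in juvenile bmEC-like cells, with 1 or 2 of the 10 at 0 in aged sums. The 7 platelet markers went the other way, at 200 to 215 CPM in juvenile, 78.4 to 92.5 in adult and 29.5 to 38.2 in aged sums, where 3 of 7 were at 0, and the 7 macrophage markers were at 156 to 182 CPM in aged against 544 to 545 in adult sums. The 7 markers used to name bmEC-like cells summed to 7868 to 7891 CPM in aged and to 4995 to 5802 CPM in all other groups. Markers of other endothelial types were higher in aged than in adult bmEC-like sums as well: the 6 lymphatic markers stood at 372 to 401 against 149 CPM (2 or 3 at 0 in aged sums), the 9 arterial ones at 280 to 316 against 150 to 161, and the 6 of type R cells at 1284 to 1348 against 665 to 700. P-selectin is also a platelet molecule. Such a sum can rest on few genes: in the aged pEC-like sum the haematopoietic markers stood at 820 CPM with 7 of 10 at 0. The sums are therefore not read as numbers of other cells, and their part in the changes was not tested.

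Outside the sinusoidal cells, the aged libraries had less of several genes whose adult share was near that of the haematopoietic cells. The 10 haematopoietic markers moved too, at a summed 2189 to 2295 CPM in aged against 211 to 280 in adult aEC-like cells, 159 to 197 against 55.0 to 58.0 in rEC-like cells and 999 to 1012 against 61.9 to 66.6 in mpEC-like cells, and their part in the results was not tested. In aEC-like cells Darc was 64.9 and 91.8 CPM in adult and 7.68 and 3.36 in aged libraries, and Selp 17.7 and 26.9 against 6.68 and 2.68. Darc, Selp, Vcam1 and Icam2 passed in aged against adult aEC-like cells, where 57.7% of genes passed, with changes of -3.80 ± 0.27, -2.22 ± 0.33, -0.69 ± 0.11 and -0.47 ± 0.06. The 4 genes also passed in rEC-like cells, where 47.1% passed, with -4.52 ± 0.40 for Darc and -2.72 ± 0.30 for Vcam1. There Icam2 did not pass without adult replicate 1 (-0.20), aged replicate 1 (-0.31) or aged replicate 2 (-0.28). Selp did not pass without adult replicate 2 (-1.65). Among the haematopoietic cells, 0 of 139 and 0 of 123 aged cells held a Darc UMI after thinning, which allows shares of up to 2.16% and 2.44% (3 cells of each total, counting error only), against 10.2 and 13.5% in the adult libraries. Stab2 was found in 2.16 and 1.63% of aged against 11.9 and 16.0% of adult haematopoietic cells. As a percentage of the bmEC-like level of the same library, aEC-like Darc went from 4.39 and 6.00% in adult to 1.02 and 0.416% in aged libraries and Stab2 from 4.76 and 8.08% to 0.326 and 0.411%, while Vcam1 stayed at 9.67 and 11.4% against 9.31 and 9.49%.

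The aged changes of bmEC-like cells were set against those of the other types by the interaction terms of the edgeR fit. Against aEC-like cells 4 of the 7 genes were called (Darc, Selp, Sele and Madcam1, where 4.28% of genes were), against rEC-like cells 4 (Darc, Selp, Sele and Vcam1, where 3.62% were) and against mpEC-like cells 2 (Sele and Madcam1, where 1.69% were). All of these differences were positive. Several calls were lost under other settings, as given below. In mpEC-like cells with no Stab2 UMI both terms against that type were lost, Sele at -0.046 and Madcam1 at an equally large difference. The shares of Darc, Selp, Sele and Madcam1 in arterial cells were at or below the haematopoietic floor. So were those of Darc, Selp, Sele and Vcam1 in rEC-like cells and of Madcam1 in mpEC-like cells. In the aged libraries the floor of Darc and Vcam1 was lower, and the part of the floor was not tested. No change of expression in arterial or rEC-like cells, or of Madcam1 in mpEC-like cells, is read from the interaction terms. Those of Madcam1 rest on 1 to 7 UMIs a library outside the bmEC-like cells. Madcam1 did not pass the filter on low counts in the fits within aEC-like or mpEC-like cells, nor Sele in that within rEC-like cells. In the interaction fit they were tested together with the bmEC-like sums, where they are high. The counts of calls are therefore not read as a result about the genes.

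In mpEC-like cells of aged libraries, where 58.6% of tested genes passed, Darc was 99.9 and 62.7 CPM against 322 and 344 (-2.04 ± 0.11), Vcam1 243 and 197 against 362 and 418 (-0.83 ± 0.10) and Icam2 395 and 399 against 656 and 664 (-0.73 ± 0.07). Selp, at 99.4 and 93.5 CPM, overlapped the adult range of 94.0 to 107. In the same aged sums the macrophage markers were at 345 to 360 CPM against 1013 to 1109 in adult sums. Higher were the bmEC markers (1747 to 2038 against 1414 to 1518) and the arterial ones (409 to 422 against 303 to 367), and the part of these markers was not tested. In juvenile mpEC-like cells, where 21.2% passed, Darc (-0.42 ± 0.08), Icam2 (-0.29 ± 0.06) and Sele (-0.62 ± 0.22) were lower than in adult cells, and Sele did not pass without either juvenile library or without adult replicate 2. With the cells clustered at resolution 0.8 Darc was at 0.10 and Sele at 0.17, and in the mpEC-like cells with no UMI of the sinusoidal gene Stab2 Sele was at 1.04, none of which passed. DESeq2 called only Icam2 of the 7 genes in this comparison, and types named from Ramp3, Aplnr, Stab2, Gja4, Timp4 and Aqp7 alone left only Darc (-1.04). In the juvenile mpEC-like sums macrophage markers were at 526 to 574 CPM against 1013 to 1109 in adult sums and haematopoietic markers at 6.52 to 9.35 against 61.9 to 66.6. Higher there were the platelet markers (119 to 126 against 64.6 to 68.8) and the bmEC markers (1584 to 1610 against 1414 to 1518). The part of these markers was not tested. Vcam1 was higher in juvenile rEC-like cells (1.25 ± 0.30, where 3.1% of genes passed), but its 2 libraries stood at 283 and 133 CPM, and it did not pass without juvenile replicate 1 (0.41 ± 0.51) or adult replicate 1 (0.96 ± 0.33). The share of rEC-like cells with a Vcam1 UMI was below the haematopoietic floor and bmEC-like Vcam1 was also higher in the juvenile libraries, so no change of expression in rEC-like cells is read from it.

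PTH asks how the genes respond to a bone-forming treatment of adult mice. In bmEC-like cells the changes were small, and in mpEC-like cells the sums of Vcam1, Darc, Selp and Sele were lower than in untreated adult libraries. As given above, mpEC-like Darc and Vcam1 are not read as expression in PTH libraries. Darc, Selp and Sele did not pass in mpEC-like cells with no Stab2 UMI, as given below. In bmEC-like cells 3 of the 7 passed, where 9.1% of all tested genes passed. Sele was 151 and 145 CPM against 120 and 114 in adult libraries, with no overlap, a change of 0.33 ± 0.07 (edgeR, adjusted p = 6.4e-04). Icam2 was 336 and 336 CPM against 285 and 308 (0.18 ± 0.05, adjusted p = 0.020) and Vcam1 1549 and 1730 against 1838 and 1770 (-0.13 ± 0.04, adjusted p = 0.020). Sele did not pass without the Fos-led cluster 7 (0.19 ± 0.07, adjusted p = 0.103), and Icam2 and Vcam1 did not pass without adult replicate 1 (adjusted p = 0.264 and 0.169) or without PTH replicate 1 (0.066 and 0.457), nor Icam2 without PTH replicate 2 (0.178). In the same sums the arterial markers stood at 258 to 293 CPM against 150 to 161 in adult libraries, the mpEC markers at 377.3 to 406.4 against 254 to 269, erythroid genes at 62.7 to 83.5 against 211 to 236 and haematopoietic genes at 29.5 to 32.6 against 51.5 to 59.9, and their part in the result was not tested.

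In mpEC-like cells of PTH-treated mice 4 of the 7 passed, where 12.7% of the 11042 tested genes passed and 6.58% passed as lower. Vcam1 was 83.8 and 99.6 CPM against 362 and 418 in adult libraries, and the groups lie far apart (-2.05 ± 0.10, edgeR, adjusted p = 5.1e-20). Darc was 114 and 113 against 322 and 344 CPM (-1.55 ± 0.09), Selp 35.3 and 39.6 against 94.0 and 107 (-1.39 ± 0.11) and Sele 9.36 and 7.89 against 19.0 and 25.2 (-1.40 ± 0.24). Icam2, the gene with its higher levels outside the sinusoids, was 695 and 748 against 656 and 664 CPM (0.13 ± 0.06, adjusted p = 0.141). These changes differed from those of bmEC-like cells by 1.91 ± 0.10 for Vcam1, 1.54 ± 0.11 for Darc, 1.72 ± 0.25 for Sele and 1.28 ± 0.13 for Selp (type by group terms of the edgeR fit, 4 of 7 called where 0.9% of 12557 genes were). Under DESeq2 the terms of Sele (1.72 ± 0.87, adjusted p = 0.474) and Selp (1.33 ± 0.47, 0.107) were as large but were not called. At resolution 0.8 those of Darc (0.57) and Selp (0.55) were not.

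Vcam1 was also lower with PTH in 2 other types. In aEC-like cells, where 7.31% of genes passed, it was 140 and 98.3 CPM against 171 and 193 (-0.70 ± 0.11, edgeR, adjusted p = 2.8e-05), and it did not pass without PTH replicate 2 (-0.37 ± 0.13, adjusted p = 0.098). In pEC-like cells, where 1.53% passed, Vcam1 (-1.37 ± 0.18), Selp (-1.41 ± 0.32) and Darc (-1.05 ± 0.27) were lower, and Selp and Darc each lost the call without single adult or PTH libraries. In the pEC-like sums the bmEC markers were at 1080 to 1081 CPM in PTH against 1697 to 1953 in adult libraries and the arterial markers at 576 to 663 against 163 to 274. In the aEC-like sums the rEC markers were at 441 to 513 against 833 to 893 and the mpEC markers at 372 to 417 against 213 to 215, and the part of these markers was not tested. After thinning, 10.6% of aEC-like cells held a Vcam1 UMI (mean over libraries) against 8.10% of haematopoietic cells. That haematopoietic share was also lower in PTH than in adult libraries, and its part was not tested.

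Markers of several classes moved with these 4 genes in the mpEC-like sums, and their part in the result was not tested. The summed bmEC markers stood at 860 to 891 CPM in PTH against 1414 to 1518 in adult libraries, those of rEC-like cells at 133 to 158 against 355 to 407, erythroid genes at 42.8 to 88.5 against 184 to 264 and haematopoietic genes at 20.7 to 24.2 against 61.9 to 66.6. The mpEC markers were at 3053 to 3143 against 1936 to 2103 and the arterial markers at 548 to 573 against 303 to 367. As a percentage of the bmEC-like level of the same library, mpEC-like Vcam1 went from 20.2 and 24.2% in adult to 5.59 and 5.93% in PTH libraries and Darc from 21.4 and 22.1% to 7.63 and 7.30%. Stab2 went from 23.3 and 27.6% to 9.61 and 9.94% and Adamts5 from 21 and 24.8% to 5.50 and 5.62%, whereas Flt4, another bmEC marker, was at 47.6 and 52.4% and 51.0 and 47.9%. In the mpEC-like cells that held no Stab2 UMI, a choice made after seeing the data, Vcam1 was 95.7 and 85.2 CPM in adult (224 and 190 cells) and 62.8 and 60.6 CPM in PTH libraries (257 and 682 cells), a change of -0.58 ± 0.17 that still passed (edgeR, adjusted p = 0.039). Darc did not pass in those cells (-0.01 ± 0.16, 93.4 and 85.2 CPM in adult against 97.7 and 86.1 in PTH libraries), and neither did Sele (-0.06 ± 0.77) or Selp (-0.34 ± 0.23). With types named from Ramp3, Aplnr and the other 4 markers alone, Vcam1 was the 1 gene of the 7 that passed. The differences from bmEC-like cells were no longer called for any of the 4 genes in cells with no Stab2 UMI (Vcam1 0.45 ± 0.20, edgeR, adjusted p = 0.452; the others 0.01 to 0.38), and with the named markers only that of Vcam1 was (1.13 ± 0.11; Darc -0.03, Selp 0.01 and Sele 0.49).

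**Figure D4:**
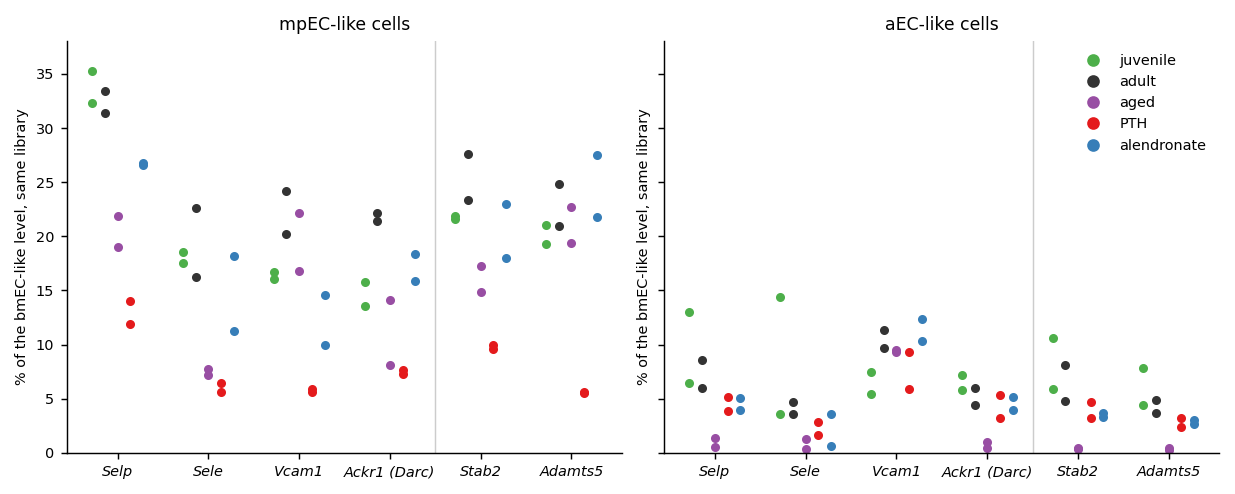
Level of each gene in mpEC-like and aEC-like cells as a percentage of the bmEC-like level of the same library, with 1 point per library. In mpEC-like cells the PTH libraries are lower than the adult ones for Vcam1, Darc, Selp and Sele and also for the sinusoidal markers Stab2 and Adamts5 right of the vertical line, and in aEC-like cells the aged libraries are lowest for Selp, Darc, Stab2 and Adamts5 but not for Vcam1.

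The share of sinusoidal cells differed between the same groups, and the genes were also tested in sums over all ECs of a library. The bmEC-like cells were 43.6 and 44.8% of ECs in adult, 31.7 and 24.1% in PTH and 16.7 and 15.4% in aged libraries. Over all ECs, where 29.6% of tested genes passed with PTH and 73.7% with age, Vcam1 was 1172 and 1160 CPM in adult, 592 and 602 in PTH (-0.97 ± 0.03) and 412 and 429 in aged libraries (-1.47 ± 0.03), against -0.13 and -0.84 in the bmEC-like cells. Selp over all ECs fell by 0.51 ± 0.05 on the log2 scale in aged libraries, where it rose in bmEC-like cells. In sums over all ECs, fewer cells of a type and less RNA per cell cannot be told apart.

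Alendronate asks the same question of an antiresorptive treatment. In bmEC-like cells Vcam1 alone passed, where 17.5% of tested genes did: it was 1386 and 1357 CPM against 1838 and 1770 in adult libraries, without overlap (-0.40 ± 0.04, edgeR, adjusted p = 5.5e-10). The other 6 genes had changes between -0.29 ± 0.11 (Icam1, adjusted p = 0.076) and 0.03 ± 0.06 (Sele). In mpEC-like cells 3 passed, where 10.3% did: Vcam1 at 134 and 194 against 362 and 418 CPM (-1.26 ± 0.10), Darc (-0.36 ± 0.09) and Selp (-0.34 ± 0.11). Darc and Selp did not pass without adult replicate 2 (adjusted p = 0.074 and 0.351) or alendronate replicate 2 (0.139 and 0.089), nor Selp without alendronate replicate 1 (0.285). With types from the named markers alone both turned and passed as higher (Darc 0.80 ± 0.13, adjusted p = 2.0e-05; Selp 0.95 ± 0.14, 5.5e-06, both by edgeR). They were also above 0, without passing, at resolution 0.8 and in cells with no Stab2 UMI. In the mpEC-like cells with no Stab2 UMI Vcam1 was 58.0 and 49.4 CPM in alendronate libraries. Other markers moved in these sums and their part was not tested. In bmEC-like cells megakaryocyte and platelet genes were at 149 to 163 CPM against 78.4 to 92.5 in adult libraries, erythroid genes at 121 to 137 against 211 to 236 and the mpEC markers at 175 to 181 against 254 to 269. In mpEC-like cells the rEC markers were at 237 to 250 against 355 to 407 and erythroid genes at 77.7 to 110 against 184 to 264. In pEC-like cells, where 1.14% of genes passed, Vcam1 also passed as lower with alendronate, at 314.6 and 306.3 CPM against 516.5 and 527.7. It did not pass without adult replicate 1 (-0.76) or 2 (-0.74), or without alendronate replicate 1 (-0.76) or 2 (-0.73).

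PTH and alendronate were also compared directly. In bmEC-like cells 4 genes passed, where 14.2% of tested genes did: Icam1 (0.45 ± 0.13, 26.2 and 25.7 CPM with PTH against 18.3 and 19.6), Sele (0.30 ± 0.07), Vcam1 (0.26 ± 0.04) and Icam2 (0.23 ± 0.05), all higher with PTH. Icam1 did not pass without PTH replicate 2 (adjusted p = 0.175) or alendronate replicate 1 (0.105), and Icam2 not without alendronate replicate 2 (0.051). Without the Fos-led cluster, Vcam1 and Icam2 were still called and Icam1 (0.34 ± 0.16, edgeR, adjusted p = 0.176) and Sele (0.16 ± 0.07, 0.151) were not. In mpEC-like cells Darc (-1.19 ± 0.10), Selp (-1.05 ± 0.12), Sele (-1.02 ± 0.26) and Vcam1 (-0.79 ± 0.12) were lower with PTH, where 16.4% of tested genes passed, and Sele did not pass without PTH replicate 2 (adjusted p = 0.127) or alendronate replicate 2 (0.302). In the mpEC-like cells with no Stab2 UMI none of the 5 genes tested was called (edgeR, 1 at an unadjusted p under 0.05), and Vcam1 turned to 0.14 ± 0.19. Over all mpEC-like cells the bmEC markers summed to 860 to 891 CPM with PTH against 1431 to 1689 with alendronate. The mpEC markers were at 3053 to 3143 against 1659 to 1757, and the part of these markers was not tested.

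**Figure D5:**
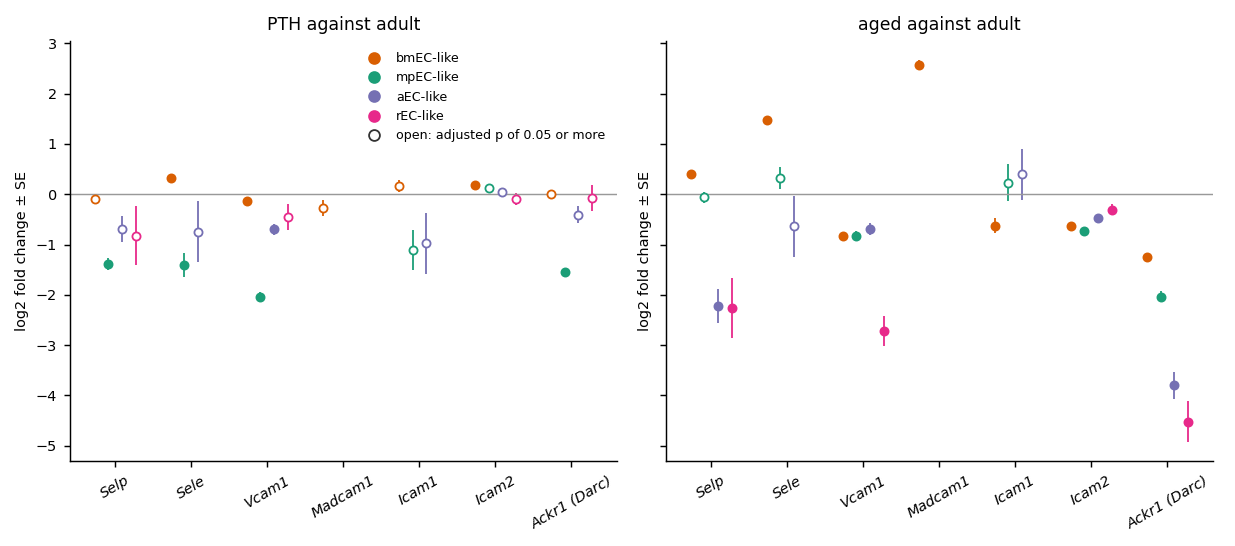
Log2 fold change ± SE of each gene in 4 endothelial types, for PTH against adult (left) and aged against adult libraries (right), with open points for an adjusted p of 0.05 or more. In PTH libraries the mpEC-like changes of Vcam1, Darc, Selp and Sele lie below the bmEC-like ones, and in aged libraries Madcam1 and Sele rise in bmEC-like cells while Darc falls in each type shown.

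Further groups of the adhesion pathway were measured in the same fits, where 7.94% of all genes were called as higher and 8.47% as lower in bmEC-like cells. These lists were chosen with earlier results of these data known. Their counts and medians, here and below, are descriptions and not independent evidence. Of 12 NF-kB pathway genes, Nfkbiz (1.1) and Bcl3 (1.09) were called as higher in bmEC-like cells than on average elsewhere and none as lower, with a list median of 0.58 beside 0.00 over all genes. Of 10 cytokine receptors tested, 3 were higher, among them Il6st (2.94), the shared signalling chain of the interleukin-6 family, and Il1r1 (1.41), the interleukin-1 receptor, and 1 was lower. Of 7 genes of selectin ligands and sialomucins, Chst2, a sulfotransferase that builds selectin ligands, was higher (3.30) and Cd34 (-3.70) and Podxl lower. Of 10 junction and transmigration molecules 3 were lower, Jam2 (-3.02), Jam3 (-2.45) and Mcam, and none higher. Weibel-Palade body genes had 1 higher and 3 lower of 8, with Plat at -4.04 and Edn1 at -2.80, although Selp, which is stored in these bodies, was higher.

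With age, 4 of the 12 NF-kB genes rose and 5 fell in bmEC-like cells. The 4 that rose were Tnfaip3 (0.50), Tnfaip2 (0.28), Nfkb1 (0.20) and Irf1 (0.19), and those that fell included Nfkbia (-0.66), the inhibitor that NF-kB itself induces, and Nfkb2 (-0.56). Over all genes 31.8% rose and 32.2% fell, so a call is common in this comparison. Of 10 chemokine genes 3 rose and 5 fell, with Cxcl12, the chemokine that retains stem cells in the marrow, at -1.78 and Cxcl9 at 1.52. Of 8 Weibel-Palade body genes 5 rose, with Stxbp5 at 0.95, and Cd63 fell (-1.32). In juvenile bmEC-like cells 7 of the 10 chemokine genes were lower than in adult cells, with Cxcl9 at -3.22 and Cxcl16 at -1.60, and 1 was higher, where 18.6% of all genes were lower and 18.5% higher. The list medians for aged cells were -0.04 (NF-kB), -0.41 (chemokines) and 0.76 (Weibel-Palade bodies) beside 0.02 over all genes.

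With PTH, 6 of the 12 NF-kB genes rose in bmEC-like cells and none fell, where 5.11% of all genes rose, among them Nfkbiz (0.62) and Relb (0.37), with a list median of 0.24. The lists were followed in the main fits only, so their calls without the Fos-led cluster are not given. With alendronate 4 rose and none fell, where 9.88% of all genes rose, with Nfkbiz at 0.58 and Bcl3 at 0.51. Of the sialomucins, Cd34 (1.39) and Podxl (0.55) rose with PTH. In mpEC-like cells of PTH-treated mice, where 6.58% of all genes fell and 6.1% rose, 3 of 9 chemokines fell, with Cxcl9 at -1.75 and Ccl2 at -1.07, and none rose. Of 9 cytokine receptors the chain Il6st fell (-1.28), and of 7 selectin ligands and sialomucins 3 rose, with Cd34 at 0.51, and Chst2 fell (-0.73). Il6st and Chst2 were also higher in bmEC-like than in mpEC-like cells, by 2.62 and 1.79. Of 10 junction genes 5 rose, with Jam3 at 0.60, and none fell. The leukocyte integrins and ligands that pair with the 7 genes were mostly below the filter: 2 of 10 were tested in bmEC-like cells.

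Across the 49 sums of type and library, Selp, Darc, Sele and Vcam1 had like patterns, with Pearson r of log2(CPM + 1) of 0.913 for Selp with Darc, 0.911 for Selp with Sele and 0.877 for Vcam1 with Darc, and Icam2 ran against them (-0.533 to -0.642). Among 6715 other genes, those most like Selp were Stab2 (0.961), Gpm6a (0.960) and Mrc1 (0.952), and those most like Vcam1 were Vstm4 (0.938), Clca1 (0.933) and Zfp691 (0.915). Darc was nearest to Ly96 (0.944), Snx5 and Ctsl, Sele to Gpm6a (0.933), Serpina3f and Ap1b1, and Icam2 to Anp32a (0.923), Fxyd5 and Emp3. Icam1, with Jak1 (0.831), Ap1b1 and Notch2, and Madcam1, with Col6a3 (0.814), Mylip and Daglb, had weaker neighbours. The sums share libraries, depth and cell types, so these r values are descriptions only.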

How the data were processed

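The authors deposited, for each of the 10 libraries, a table of UMI counts per gene and cell without normalization. Per the study's methods and processing notes, reads were assigned to cells with UMI-tools 1.1.2, aligned to mm10 with STAR 2.7.10a and counted on genes with featureCounts 2.0.3. Here cells with 500 to 6000 genes and under 25% mitochondrial UMIs were kept, 276 symbols beginning with U that had UMIs only in the aged tables were left out, and non-endothelial clusters were set apart. ECs were integrated with Seurat 5.3.0 (2000 variable genes, 30 principal components, resolution 0.5) without the 7 genes and named from markers. Doublets were marked by Scrublet in scanpy 1.11.5 but kept.

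UMI counts were summed per type and library where at least 20 cells were present. Sums were tested with edgeR 4.0.16 (filterByExpr, TMM, quasi-likelihood, Benjamini-Hochberg over all genes tested), and differences between types also needed an absolute log2 value over 1. With 2 libraries against 2, an exact permutation test of 1 value has 6 arrangements and cannot go below p = 0.333, so none is given. Genes of the lists were named when called with a mean level of 20 CPM or more, and similar genes by Pearson r, 3 for each gene. Alternatives were DESeq2 1.42.0, other scaling, filters, resolutions and marker rules, no integration, doublet removal, thinning to 2000 UMIs or none, and leaving out libraries. The 7 genes and the lists were chosen with earlier results of these data known.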

Additional observations from a re-analysis of the deposited data

Results flagged for a closer look

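In 14 cases a gene's change against adult libraries differed between bmEC-like cells and another type, by the type and group interaction term of the edgeR fit. Each value is the change in bmEC-like cells minus that in the other type, on the log2 scale. For PTH against mpEC-like cells these were 1.91 for Vcam1, 1.54 for Darc, 1.72 for Sele and 1.28 for Selp. They rest on 197 and 606 Vcam1 UMIs in PTH against 858 and 944 in adult mpEC-like cells.

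For aged against adult, the differences from aEC-like cells were 2.63 for Darc, 3.65 for Madcam1, 2.20 for Sele and 2.71 for Selp. The differences from rEC-like cells were 3.44 for Darc, 5.06 for Sele, 2.84 for Selp and 2.03 for Vcam1, and those from mpEC-like cells were 3.10 for Madcam1 and 1.25 for Sele. Several rest on few UMIs outside the bmEC-like cells: Madcam1 had 1 and 3 UMIs in adult and 2 and 1 in aged aEC-like cells, and Sele had 4 and 1 in adult and 1 and 0 in aged rEC-like cells. The call was lost for Sele against aEC-like cells without adult replicate 1 (2.01) or aged replicate 2 (1.45), for Sele against rEC-like cells without adult replicate 1 (3.84), and for Selp against rEC-like cells without adult replicate 2 (2.20). Madcam1 lost it against mpEC-like cells without adult replicate 2 (2.40) and against aEC-like cells without adult replicate 2 (2.7) or aged replicate 2 (3.16). Further calls were lost under other settings. DESeq2 lost those of Sele with PTH (1.72, adjusted p = 0.474), Selp with PTH (1.33, 0.107), and aged Sele against mpEC-like (1.30, 0.393) and aEC-like cells (2.32, 0.088), at differences close to those of edgeR. At resolution 0.8 both Madcam1 terms (1.69 and 2.35) and the PTH terms of Darc and Selp were lost, and without integration the PTH terms of Darc (0.63) and Selp (0.67) fell under the fold asked for. With the named markers, aged Darc against rEC-like cells went from 3.44 to 0.26, and Selp against rEC-like (1.97), Sele against aEC-like (1.82), Madcam1 against mpEC-like cells (1.38) and the PTH terms of Darc, Sele and Selp were lost. Removing doublets lost Madcam1 against mpEC-like (2.44) and Sele against aEC-like cells (1.26), and in mpEC-like cells with no Stab2 UMI all 6 terms against mpEC-like cells were lost, aged Madcam1 at an equally large difference (3.23 ± 1.73) and the other 5 at -0.046 to 0.45.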

How the results depend on the processing

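The 7 calls between types held with any library left out (7 to 7), as did the aged calls in bmEC-like (7 to 7) and mpEC-like cells (3 to 3). With 1 library left out, the counts ran from 5 to 6 for juvenile bmEC-like and 2 to 4 for juvenile mpEC-like cells, 1 to 3 and 4 to 5 for PTH, 1 to 1 and 1 to 3 for alendronate, 3 to 4 and 3 to 4 for PTH against alendronate, and 11 to 15 for the interactions (14 with all libraries). Without integration no juvenile bmEC-like call was left (0 of 6; edgeR, 1 gene at an unadjusted p under 0.05), and there was 1 call for PTH in bmEC-like cells and 1 for alendronate in mpEC-like cells; aged libraries then had no sums for several types. DESeq2 gave 1 call each for juvenile and alendronate mpEC-like and for PTH bmEC-like cells. With types from the named markers alone there was 1 call for juvenile and for PTH in mpEC-like cells, 1 for PTH and 2 for alendronate in bmEC-like cells. Resolution 0.8 gave 3 alendronate calls in bmEC-like and 1 in mpEC-like cells, and removing doublets 2 in bmEC-like cells. In mpEC-like cells with no Stab2 UMI there was 1 call for PTH, 1 for alendronate, 0 for PTH against alendronate (edgeR, 1 gene at an unadjusted p under 0.05), and 9 interactions; leaving out the Fos-led cluster gave 2 calls for PTH against alendronate in bmEC-like cells. The cause was not tested in any of these. In the main fits 64% of tested genes passed with age in bmEC-like and 58.6% in mpEC-like cells. Aged calls that hold therefore say little about these genes. The shares of all genes called under the other settings are not given, so the counts describe the settings only. Leaving out Stab2-positive mpEC-like cells, the Fos-led cluster or both aged libraries was chosen after seeing the data.

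Signs turned in mpEC-like cells at resolution 0.8 for Darc (-1.54) and Sele (-1.03) against the other types, both past the threshold as lower, for juvenile Darc (0.10) and Sele (0.17), and for alendronate Darc (0.039) and Selp (0.19). They turned in cells with no Stab2 UMI for Darc against the other types (-1.18, past the threshold as lower), juvenile Sele (1.04), alendronate Darc (0.21) and Selp (0.18), Vcam1 in PTH against alendronate (0.14) and the aged Sele interaction (-0.046). Under the named markers they turned for Darc with PTH (0.12) and its interaction (-0.035), alendronate Darc (0.80) and Selp (0.95), which both passed as higher, and the Selp interaction (-1.03), which also passed, Vcam1 of juvenile rEC-like cells (-0.46) and of aEC-like cells in PTH against alendronate (0.017). Without integration they turned for juvenile mpEC-like Vcam1 (-0.90, which passed as lower) and aEC-like Vcam1 in PTH against alendronate (0.07).

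Shares of bmEC-like cells with a UMI depend on depth: thinned to 2000 UMIs and unthinned they were 82.7% and 91.6% for Vcam1, 76.0% and 87.8% for Darc, 44.6% and 67.5% for Selp, 37.7% and 62.4% for Icam2 and 4.09% and 8.71% for Icam1, and unthinned 33.0% for Sele and 8.88% for Madcam1. Same-numbered libraries did not deviate together (correlations from -0.0763 to 0.073 in bmEC-like cells), so the numbers do not pair them; with the replicate block 89 of 89 called results stayed called. Few UMIs outside the bmEC-like cells limit the precision of Madcam1, Sele and Icam1 there.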

Other observations

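Cluster 12, 434 unnamed cells led by Penk and Itm2a, had Icam1 at a median of 19.0 CPM against 4.90 in the mpEC-like cluster 2 (higher in 7 of 9 libraries) and Icam2 at 353 against 636 (lower in 9 of 9). Vcam1 was at 80.6 against 217 (lower in 8 of 9) and Darc at 144 against 224 (lower in 7 of 9). The 53 lymphatic-like cells held no Sele or Madcam1 UMI. The number of UMIs per cell that held any also differed with age in thinned bmEC-like cells: it was 1.83 in aged against 1.18 in adult cells for Sele, and 1.75 against 2.34 for Darc.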
